A study of Mus musculus with 6 samples.

Results

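In whole mouse lens, the transcript of 1 beaded filament gene was lower and those of 2 membrane scaffold genes were higher in Cd24a knockout than in wild-type mice. The 7 genes described here were chosen by name from the deposited count table, as the beaded filament genes Bfsp1 and Bfsp2, the vimentin gene Vim, and the scaffold genes Ezr, Ppl, Prx and Ahnak, out of 55416 genes in the table. All 7 had enough reads to be among the 11474 genes tested. Bfsp2 was called lower in the knockout, Ppl and Ahnak were called higher, and Bfsp1, Vim, Ezr and Prx were not called. Among all genes tested 4.48% were called lower and 3.02% higher, 7.5% in either direction. The called differences were near 1.2-fold, 1.21-fold lower for Bfsp2, 1.19-fold higher for Ppl and 1.2-fold higher for Ahnak.

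RNA was taken from whole lenses of mice with a germline knockout of Cd24a, a gene for a small cell surface glycoprotein, and of wildtype mice, with 3 samples per genotype and 2 lenses in each sample. The labels call the samples of a genotype biological replicates without saying how the lenses of a sample were paired, so the p-values measure the spread between these samples. The knockout mice are labelled C57BL/6 and the wildtype mice C57BL/har, so strain and genotype cannot be told apart. The mice were 8 weeks old by the sample labels, though the series text has 7 weeks, and no treatment is named for either group. The deletion is present in every tissue from conception and is not limited to lens cells. Of the markers, 11 of 12 fibre and 10 of 10 lens epithelium genes had enough reads to be tested. So did 10 of 10 photoreceptor and 7 of 10 pigment cell genes, so passing this filter does not single out lens. The lens label fits the levels in CPM (counts scaled to library size). Fibre markers, which include Bfsp1 and Bfsp2, summed to 179571 CPM or more in every library, and photoreceptor markers to 447 CPM or less. The fibre marker Crybb2 alone was at 125900 CPM or more. Lim2, a fibre membrane protein gene, had 0 counts in every library.

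Lens fibre cells carry a filament found in no other cell type, the beaded filament, built from BFSP1 (filensin) and BFSP2 (phakinin, also called CP49), which are divergent members of the intermediate filament family. Vimentin, a common intermediate filament protein, is made by the lens epithelium and by younger fibres. At the fibre membrane ezrin, periplakin, periaxin and desmoyokin (the product of Ahnak) form a scaffold, known as the EPPD complex, that joins the membrane and its cadherins to actin and intermediate filaments. In mice, loss of either beaded filament protein disturbs the filaments and the optical quality of the lens.

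The genes differ in structure, which bears on how reads are counted. In GENCODE M21, an annotation of another build than the counts, the longest coding transcript of Bfsp1 has 8 exons and 2007 coding bases and that of Bfsp2 has 7 exons and 1248 coding bases. In Ahnak a single exon makes up 96.7% of the 18100 transcript bases, and in Prx a single exon makes up 86.2% of 4841. Exons of Bfsp2 share 201 bases with an antisense gene, 5830418P13Rik, which had 15 counts over the 6 libraries against 211731 for Bfsp2. Those of Prx share 300 bases with the antisense gene Gm15541, which had 6 counts against 1579. How strand was handled in counting is not given here, so reads of the antisense partners may be among these counts.

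The promoters of the 3 filament genes and of Ahnak, the scaffold gene with the smallest adjusted p, are shown because they set the called Bfsp2 and Ahnak, which changed in opposite directions, beside the other filament genes, which were not called. Each run holds 250 bases before and 50 after the RefSeq transcript start, from RefSeq on GRCm38.p6, which had an entry for 6 of the 7 genes (Ppl was the exception). Capitals mark matches on either strand to TATAAA (the TATA box), CCAAT (the NF-Y motif), GGGCGG (the GC box), TGCTGAC (part of the Maf recognition element) and GAANNTTC (the core of the heat shock element). Bfsp1 lies at chr2:143863124-143863423, minus strand, Bfsp2 at chr9:103449127-103449426, minus strand, Vim at chr2:13574061-13574360, plus strand and Ahnak at chr19:8989034-8989333, plus strand.
Bfsp1: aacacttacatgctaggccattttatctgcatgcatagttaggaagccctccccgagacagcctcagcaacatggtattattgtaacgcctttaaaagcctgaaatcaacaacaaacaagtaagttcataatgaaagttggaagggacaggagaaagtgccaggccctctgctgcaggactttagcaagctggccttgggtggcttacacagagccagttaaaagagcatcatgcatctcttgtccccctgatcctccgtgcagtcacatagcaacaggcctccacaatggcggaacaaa
Bfsp2: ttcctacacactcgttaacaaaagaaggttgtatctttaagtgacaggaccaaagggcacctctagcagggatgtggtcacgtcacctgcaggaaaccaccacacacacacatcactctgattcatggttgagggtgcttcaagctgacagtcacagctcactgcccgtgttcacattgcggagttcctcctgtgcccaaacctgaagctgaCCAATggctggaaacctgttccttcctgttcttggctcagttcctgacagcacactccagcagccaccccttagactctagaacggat
Vim: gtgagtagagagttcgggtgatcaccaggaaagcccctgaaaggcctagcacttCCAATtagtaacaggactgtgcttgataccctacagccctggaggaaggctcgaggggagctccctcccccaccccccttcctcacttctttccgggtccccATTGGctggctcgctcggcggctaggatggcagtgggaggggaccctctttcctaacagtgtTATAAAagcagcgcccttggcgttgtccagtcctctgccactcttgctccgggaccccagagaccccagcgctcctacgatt
Ahnak: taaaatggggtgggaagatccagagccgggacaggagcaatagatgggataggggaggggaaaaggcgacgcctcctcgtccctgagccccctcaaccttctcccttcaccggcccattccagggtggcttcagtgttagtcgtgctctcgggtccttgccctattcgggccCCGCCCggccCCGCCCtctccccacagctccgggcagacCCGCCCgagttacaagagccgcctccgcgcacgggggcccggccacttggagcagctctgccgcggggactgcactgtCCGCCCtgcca

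The Bfsp1 window held none of the 5 motifs, and that of Bfsp2 held a single CCAAT that began 38 bases before the start. Vim had TATAAA 32 bases before the start and CCAAT matches, one on each strand, that began 196 and 94 bases before it. Ahnak had 4 matches to GGGCGG, all on the other strand, and Ezr, whose promoter is not printed, had a pair of them. Prx had 1 CCAAT, 73 bases before the start. Among all 32851 promoter windows of the same length, 37.4% held CCAAT, 35.7% the GC box, 13.6% the TATA box, 7.86% the heat shock element core and 4.67% the Maf motif. No motif overlapped another in the printed windows. The GC content was 47.7% for Bfsp1, 51.3% for Bfsp2 and 59.3% for Vim. Among the scaffold genes it was 68.0% for Ezr, 67.3% for Ahnak and 56.7% for Prx. A match is a description of the letters and does not show that a factor binds there.

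The libraries held between 5384542 and 7302951 gene counts, with the 3 wild-type libraries the deeper ones. The Cd24a count was 17514 to 20656 in wild type and 45 to 71 in the knockout, so every library followed its genotype label. Xist, the RNA of the inactive X chromosome, had 2191 and 2466 counts in replicate 3 of wild type and knockout and at most 4 in the other libraries, so each group held 1 library with a female pattern. Of 11474 genes tested, 861 (7.5%) passed an edgeR adjusted p of 0.05, 347 (3.02%) higher and 514 (4.48%) lower in the knockout. The groups did not overlap in CPM (counts scaled to a common library size with TMM factors) for 2803 genes (24.4%). Calls were more frequent among abundant genes, 26 of 62 genes (41.9%) averaging 1000 CPM or more and 189 of 826 (22.9%) between 100 and 1000 CPM. Of the 7 genes described here 3 were called and 5 did not overlap between the groups, and all but Prx had a mean above 100 CPM.

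Per kilobase of exon, the order of the levels was Bfsp1, Bfsp2, Vim, Ezr, Ppl, Ahnak and Prx in both genotypes. Bfsp1 stood at 6739 ± 171 CPM per kb in wild type and 6304 ± 479 in the knockout (SD, n = 3 each), the 19th highest level among the genes tested. Bfsp2 was at 3677 ± 67.6 and 3047 ± 148 CPM per kb, and Vim at 579.6 ± 15.3 and 648 ± 36.3. The scaffold genes were lower, Ezr at 109 ± 4.63 and 119 ± 3.36, Ppl at 52.8 ± 1.44 and 62.96 ± 1.29, Ahnak at 49.8 ± 1.23 and 59.9 ± 1.10 and Prx at 7.42 ± 0.950 and 7.63 ± 0.910 CPM per kb. No neighbours in this order overlapped within a genotype, but Ppl and Ahnak were close, a ratio of 1.06 in wild type and 1.05 in the knockout. The deposited exon length of Vim is 4743 bases against 2193 in its longest coding transcript in M21, and with the latter its wild-type level would be 1254 CPM per kb. The order of the 7 genes was the same with transcript lengths, an alternative added after the data were seen.

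**Figure D1:**
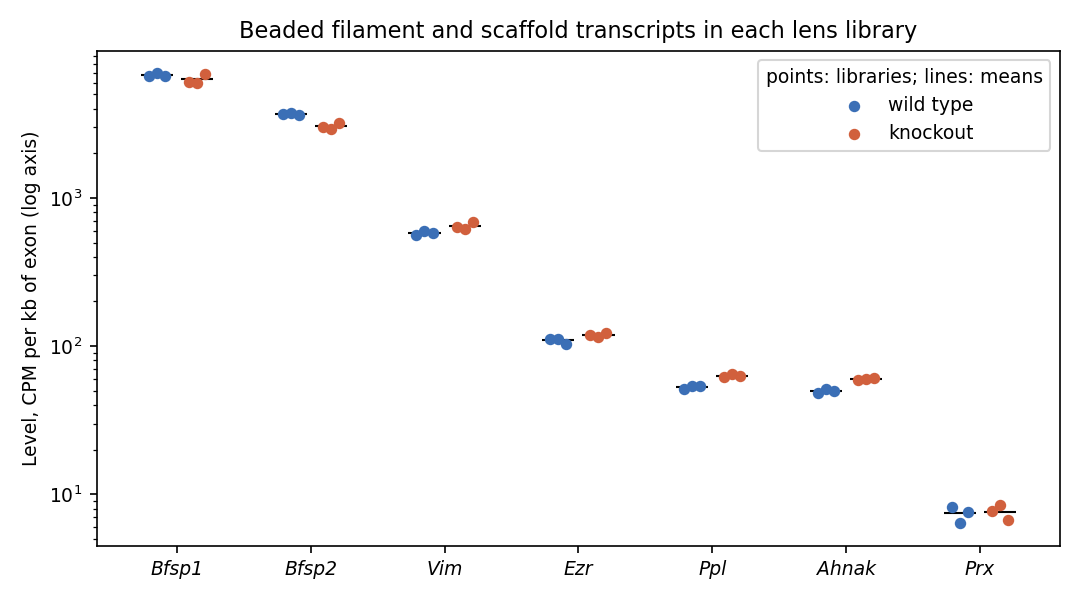
Level of each gene in CPM per kb of exon (log axis) in each of the 6 libraries, with points for libraries and short lines for group means. Bfsp1 and Bfsp2 lie between 2919 and 6937, and Prx lies under 10 in every library.

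Bfsp2 fell in the knockout. Bfsp2 had 6246, 6357 and 6128 CPM in the wild-type libraries and 5116, 4956 and 5448 CPM in the knockout libraries. Every knockout library lay below every wild-type library, and knockout replicate 3 was the nearest to wild type. The means were 6244 ± 115 CPM for wild-type lenses against 5173 ± 251 CPM for knockout lenses (SD, n = 3 per genotype), and the difference passed the test (log2 fold change of -0.27, SE 0.06, 95% interval -0.39 to -0.16, edgeR adjusted p = 0.00282). With library size alone in place of TMM scaling, which shifted the median over all genes tested to 0.11 from 0.004 (log2), the value was -0.16 and stayed called. Without each library in turn it ranged from -0.31 to -0.24 and was called each time.

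Bfsp1, the partner of Bfsp2 in the beaded filament, did not pass the test. It had 15866, 16579.5 and 15874 CPM in the wild-type libraries, in the order of their numbers, against 14558, 14266 and 16376 in those of the knockout. Knockout replicates 1 and 2 lay below every wild-type library, while knockout replicate 3 lay within the wild-type range. The means were 16106 ± 409.6 CPM for wild-type lenses against 15067 ± 1144 CPM for knockout lenses (SD, n = 3 per genotype), with a log2 fold change of -0.10, SE 0.06, 95% interval -0.22 to 0.03, edgeR adjusted p = 0.415, and the interval allows anything from a fold of 0.857 to 1.02. The replicate spread of 7.59% in the knockout was far above counting error, at most 0.352% in every library. With library size alone the sign turned, at log2 0.01. Without knockout replicate 3 the value was -0.16 (edgeR adjusted p = 0.0717). In the 4 libraries with replicate numbers 1 and 2, chosen after the data were seen, it was -0.18 (edgeR adjusted p = 0.101). Bfsp1 was not called in any of these.

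Vim, which marks the epithelium and younger fibres, did not pass the test but was called in 6 of the 17 alternatives run. It had 2684, 2828 and 2736 CPM in wild type against 3019.9, 2936 and 3267 CPM without Cd24a. All 3 knockout libraries were above all wild-type libraries, with knockout replicate 3 the highest. The means were 2749 ± 72.8 CPM for wild-type lenses against 3074 ± 172 CPM for knockout lenses (SD, n = 3 per genotype), with a log2 fold change of 0.16, SE 0.06, 95% interval 0.04 to 0.28, edgeR adjusted p = 0.0911. Vim passed with DESeq2 (adjusted p = 0.027), limma-voom (adjusted p = 0.0172), no low-count filter, library size alone or a correction for length and GC content. It also passed without knockout replicate 2 (edgeR adjusted p = 0.0268). Vim was not called with the replicate block (edgeR adjusted p = 0.171). Nor was it called without any other single library, where the edgeR adjusted p reached 0.262. In the 4 libraries with replicate numbers 1 and 2, chosen after the data were seen to leave out the Xist-rich ones, its log2 fold change was 0.11 (edgeR adjusted p = 0.411), against -0.33 for Bfsp2 (0.000913).

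**Figure D2:**
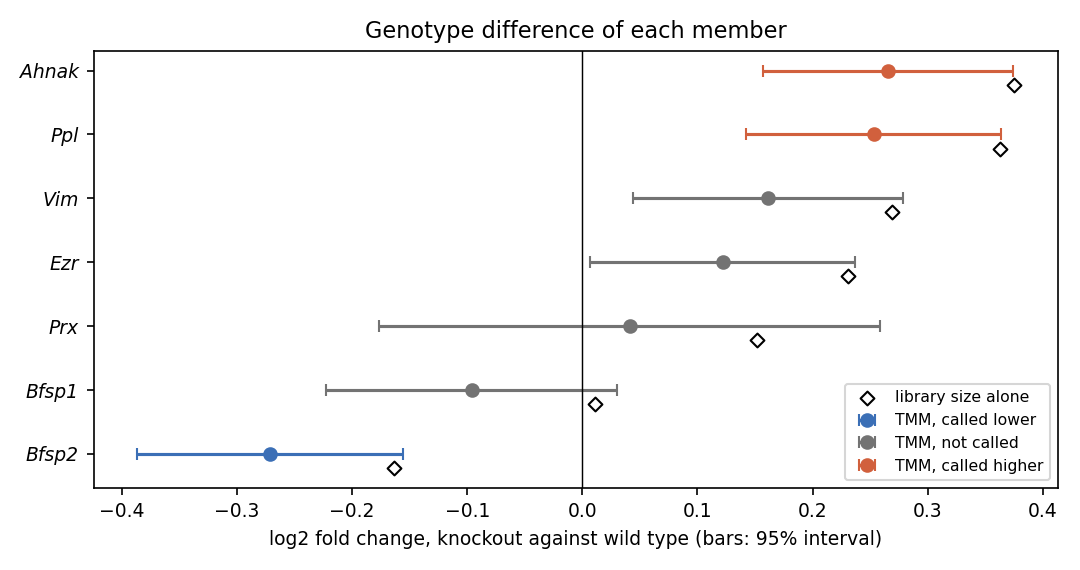
Log2 fold change of each gene, knockout against wild type, with 95% intervals from the edgeR fit (circles, coloured by call) and the value with library size alone (diamonds). Ahnak (0.27) and Ppl (0.25) lie to the right and Bfsp2 (-0.27) to the left, and the diamonds lie to the right of the circles for all 7 genes.

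Ratios between the filament transcripts, taken per length within each library and so free of scaling between libraries, did not overlap between the genotypes. The Vim to Bfsp2 ratio was 0.154, 0.159 and 0.160 in wild type and 0.211, 0.212 and 0.215 in the knockout. The Bfsp1 to Bfsp2 ratio was 1.80, 1.85 and 1.84 in wild type and 2.02, 2.04 and 2.14 in the knockout. For both ratios all knockout libraries lay above all wild-type libraries. The mean log2 differences were 0.43 for Vim to Bfsp2, 0.26 for Vim to Bfsp1 and 0.17 for Bfsp1 to Bfsp2, each with an exact permutation p of 0.10 (two-sided), the smallest that 3 against 3 libraries can give. Adjusted over the 6 ratios computed, each of these p-values was 0.15 (exact permutation). A ratio shows unequal change and not which of its genes changed.

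**Figure D3:**
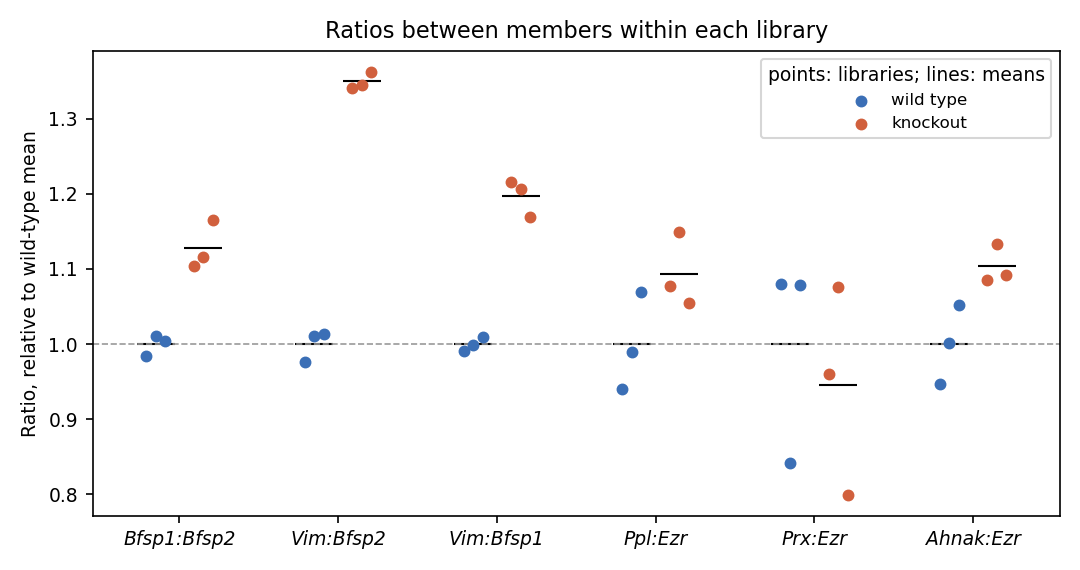
Ratios between genes per length in each library, divided by the wild-type mean of that ratio, with points for libraries and lines for group means. The Vim to Bfsp2 ratio separates the genotypes most widely, and the Prx to Ezr ratio overlaps.

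Among the scaffold genes, Ahnak, whose product desmoyokin is a very large membrane-associated protein, rose in the knockout. It had 967, 1016 and 995 CPM in wild type against 1172, 1193 and 1215 CPM without Cd24a. The groups were far apart against their spread, with means of 993 ± 24.5 CPM for wild-type lenses against 1193 ± 21.98 CPM for knockout lenses (SD, n = 3 per genotype). The difference passed the test (log2 fold change of 0.27, SE 0.05, 95% interval 0.16 to 0.37, edgeR adjusted p = 0.00199). Without each library in turn the value ranged from 0.25 to 0.28 and was called each time.

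Ppl, which encodes the cytolinker periplakin of the plakin family, also rose. It had 353, 369 and 371 CPM in wild type against 427, 444 and 431 CPM without Cd24a, with no overlap. The means were 364 ± 9.92 CPM for wild-type lenses against 434 ± 8.91 CPM for knockout lenses (SD, n = 3 per genotype), with a log2 fold change of 0.25, SE 0.05, 95% interval 0.14 to 0.36, edgeR adjusted p = 0.00367. The call was lost without wild-type replicate 1, where the value was 0.23 (edgeR adjusted p = 0.0598), and held without each of the others.

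Ezr, which encodes ezrin, a linker of membrane proteins to actin, did not pass the test. It had 369, 367 and 342 CPM in wild type against 390.1, 380.4 and 402 CPM without Cd24a. The groups did not overlap, but wild-type replicate 3 lay apart below the other wild-type libraries. The difference (log2 fold change of 0.12, SE 0.06, 95% interval 0.01 to 0.24, edgeR adjusted p = 0.216) passed with library size alone, at 0.23 (edgeR adjusted p = 0.00537).

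Prx, which encodes the PDZ protein periaxin, known from Schwann cells as well as lens fibres, was the least abundant of the 7 genes. It had 328, 229 and 267 counts in wild type and 244, 306 and 205 counts in the knockout, or 46.7, 36.1 and 43.2 CPM against 43.9, 47.9 and 37.7 CPM. The groups overlapped widely (log2 fold change of 0.04, SE 0.10, 95% interval -0.18 to 0.26, edgeR adjusted p = 0.88). The interval runs from a fold of 0.885 to 1.2, and the rise of Ppl lies just inside its upper end. Counting error alone was 5.52% to 6.98% per library, against a replicate spread of 12.8% in wild type. Schwann cell markers, of which 2 of 8 had enough reads to be tested and 0 were called, summed to 112 to 135 CPM in wild type and 128 to 139 CPM in the knockout, mostly from Pmp22, and their part in the Prx values was not tested.

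Summed over Ezr, Ppl, Prx and Ahnak, the scaffold genes took 0.169% ± 0.00375 of counts in wild type and 0.213% ± 0.00672 in the knockout (SD, n = 3 each, exact permutation p = 0.10, two-sided). The 3 filament genes together took 2.41% ± 0.0314 and 2.41% ± 0.0908, with overlapping libraries (exact permutation p = 1), and without crystallin and mitochondrial genes in the total the difference turned from 0.00186 to -0.217 percentage points (exact permutation p = 0.30). These shares are of all counts, so they move as library size alone does. Relative to Ezr within a library, Ahnak went from a ratio of 0.457 ± 0.0242 to 0.504 ± 0.0120 per length, without overlap (exact permutation p = 0.10, adjusted p = 0.15, n = 3 each). The Ppl to Ezr and Prx to Ezr ratios overlapped between the genotypes (exact permutation p = 0.20 and 0.50).

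Some markers of lens cells and of other cells moved with the genotype. Of 10 markers of the lens epithelium 6 were called lower, against 4.48% of all genes tested. The 10 summed to 1654 to 1757 CPM in wild type against 1323 to 1373 CPM in knockout lenses. More of this came from Igfbp7 (912 to 1000 CPM against 728 to 756 CPM) than from all the others together. Foxe3 (log2 fold change 0.05), Pax6 (0.02), Cdh1 (-0.24) and Cldn1 (-0.40) were not called. Fibre markers, which include Bfsp1 and Bfsp2, had 6 of 11 tested genes called lower, with summed levels of 194940 to 205876 CPM in wild type against 179571 to 201845 CPM in knockout lenses. Most of that sum was Crybb2 (125900 to 143600 CPM over all libraries), which was not called. The called fibre markers were Birc7 (log2 fold change -0.97), Grifin (-0.50), Lctl (-0.33), Dnase2b (-0.30), Bfsp2 (-0.27) and Cryba1 (-0.22). Pigment cell markers were called lower in 4 of 7 tested cases, at 85.9 to 99.6 CPM summed in wild type and 53.4 to 66.9 CPM in the knockout. For fibroblast, stroma and smooth muscle markers the summed level was 401 to 439 CPM in wild type against 318 to 319.8 CPM in knockout lenses, and the fall lay in Acta2, a smooth muscle actin gene (333 to 361 CPM against 230.0 to 246 CPM). Of the others Rgs5 was called higher, but on only 1 to 3 counts in wild type and 9 to 15 in the knockout. Pdgfrb was at 53.7 to 61.4 CPM against 65.3 to 67.7 CPM and was not called. Neither was Col1a2, at 9.22 to 14.2 CPM against 4.41 to 15.8 CPM. Col1a1, Col3a1, Dcn and Lum were under 1 CPM, and Kera was at 0 counts. Photoreceptor markers overlapped, at 175 to 447 CPM and 164 to 293 CPM, with 1 of 10 called lower. In whole lens RNA, fewer cells of a type and less RNA per cell cannot be told apart, and the part of these markers in the values above was not tested.

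The authors' deposited table is an edgeR comparison of the same 6 libraries, so it is not an independent test. In it 805 of 11474 genes had a q-value of at most 0.05. Of the 7 genes the same 3 were among them. That table gives a fold of -1.21 for Bfsp2 (q = 0.00516), 1.2 for Ahnak (q = 0.00438) and 1.19 for Ppl (q = 0.00866), and 0 of the 7 genes are in the authors' deposited table of changes over 2-fold.

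**Figure D4:**
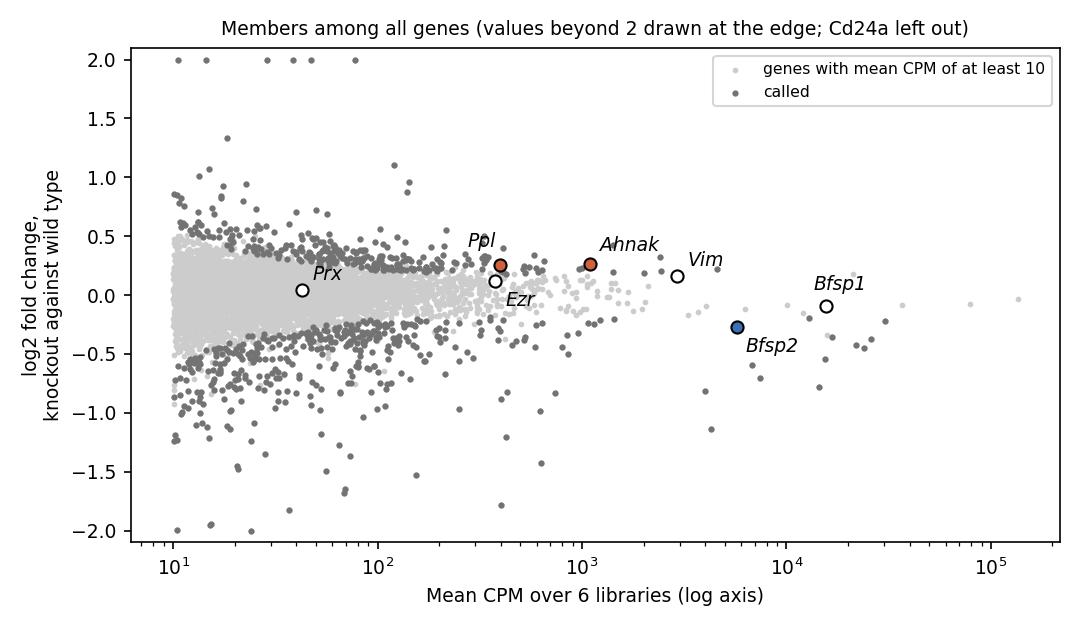
Log2 fold change against mean CPM (log axis) for genes averaging 10 CPM or more, with called genes in dark grey and the 7 genes as labelled circles, red for called higher, blue for called lower and white for not called. The called members lie between 0.25 and 0.27 from 0, and 58.0% of all called genes lie under 1.5-fold.

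Other intermediate filament genes lay below Bfsp1, Bfsp2 and Vim per kilobase of exon. Of 21 listed genes 12 were tested, 1 was called higher and 3 lower, against 3.02% higher and 4.48% lower over all genes tested. The list's median log2 fold change was -0.37, against 0.004 for all genes tested. No gene lay near that median, which fell in a gap between -0.65 and -0.08. Nes, the gene for nestin, a filament protein of progenitor cells, rose from 12.2 ± 0.257 CPM in wild type to 21.9 ± 1.65 (log2 fold change 0.84 with an SE of 0.12, adjusted p = 9.94e-05 by edgeR). Krt18 and Krt19, keratins of simple epithelia, fell from 11.7 ± 1.62 CPM in wild type to 3.91 ± 1.00 (log2 fold change -1.60 with an SE of 0.22, adjusted p = 4.88e-05 by edgeR) and from 19.2 ± 1.98 CPM in wild type to 11.4 ± 1.60 (log2 fold change -0.76 with an SE of 0.14, adjusted p = 0.00128 by edgeR). Gfap, the filament protein of astrocytes and Müller glia, fell from 9.80 ± 1.65 CPM in wild type to 3.55 ± 1.29 (log2 fold change -1.44 with an SE of 0.25, adjusted p = 0.000546 by edgeR). Markers of the corneal and surface epithelium summed to 86.3 to 96.2 CPM in wild type against 59.5 to 76.9 CPM in knockout lenses, almost all of it Aldh3a1, an aldehyde dehydrogenase gene and the only one of the 8 tested (83.3 to 94.6 CPM against 56.5 to 75.4 CPM). The other 7 markers were at 1.57 CPM or less in every library, with Krt12, the corneal keratin, at 0 counts, and their part in the keratin values was not tested. Synm, whose product synemin pairs with vimentin, had the highest level per length among them, 77.3 CPM per kb in wild type, with means of 614 ± 17.5 CPM in wild type against 663 ± 31.5 (edgeR adjusted p = 0.262). The lamin genes Lmna, Lmnb1 and Lmnb2 had log2 fold changes of 0.30, 0.25 and -0.08 and did not pass.

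Against 7.5% of all genes tested, 1 of 10 tested plakin, desmosome and linker genes, relatives and partners of Ppl, was called. This was Perp, a desmosomal tetraspan protein, which rose from 92.8 ± 3.26 CPM in wild type to 112 ± 3.37 (log2 fold change 0.27 with an SE of 0.06, adjusted p = 0.00844 by edgeR). Its call was lost without wild-type replicate 1 or 2 or knockout replicate 1 (edgeR adjusted p = 0.0558 to 0.0824). The large plakins Plec, Dst and Macf1 had log2 fold changes of 0.07, 0.03 and 0.13 and did not pass, and the list's median was 0.03.

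In the list of ezrin relatives and partners 3 of 14 tested genes were called, all higher. Over all genes tested 3.02% were called higher. Among genes averaging 100 to 1000 CPM 22.9% were called in either direction. Cd44, a hyaluronan receptor whose tail binds ezrin family proteins, rose from 355 ± 9.95 CPM in wild type to 469 ± 20.6 (log2 fold change 0.40 with an SE of 0.06, adjusted p = 4.65e-05 by edgeR). Arhgdia, an inhibitor of small GTPases that act on actin, rose from 90.6 ± 4.08 CPM in wild type to 106 ± 4.2 (log2 fold change 0.23 with an SE of 0.07, adjusted p = 0.0319 by edgeR) and Rock2, a kinase that acts on the actin cytoskeleton, from 119.8 ± 2.95 CPM in wild type to 139 ± 5.99 (log2 fold change 0.21 with an SE of 0.06, adjusted p = 0.0404 by edgeR). The calls of Arhgdia and Rock2 were lost in DESeq2, with no low-count filter and with the replicate block. Both were also lost in the 4 libraries with replicate numbers 1 and 2, chosen after the data were seen. So were they when single libraries were left out (5 of 6 libraries for Arhgdia and 6 of 6 for Rock2). The call of Rock2 was also lost with the length and GC correction. Cd44 was called under all 17 alternatives run. Msn and Rdx, the genes of moesin and radixin, had log2 fold changes of -0.02 and 0.0001, and the list's median was 0.05.

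Of 10 tested partners of AHNAK and periaxin 1 was called, against 7.5% of all genes tested. S100a10, whose protein binds annexin A2 and the C-terminal part of AHNAK, rose from 74.1 ± 2.72 CPM in wild type to 96.1 ± 6.67 (log2 fold change 0.38 with an SE of 0.07, adjusted p = 0.00129 by edgeR). Anxa2, annexin A2, was at 47.4 ± 2.21 and 52.2 ± 6.60 CPM (edgeR adjusted p = 0.462), and the list's median was -0.14. Ahnak2, the paralogue of Ahnak, had 59 counts in all.

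The wider membrane skeleton and junctions of fibre cells held 22 tested genes, of which 1 was called higher and 1 lower, with a median of 0.01. Over all genes tested 3.02% were called higher and 4.48% lower. Nrcam, a neuronal cell adhesion molecule, rose from 546 ± 10.5 CPM in wild type to 639.6 ± 15.2 (log2 fold change 0.23 with an SE of 0.05, adjusted p = 0.00739 by edgeR), and Ank3, the gene of ankyrin G, fell from 129 ± 9.73 CPM in wild type to 93.7 ± 16.7 (log2 fold change -0.47 with an SE of 0.09, adjusted p = 0.00226 by edgeR). Sptan1, the α-spectrin gene of that skeleton, had a log2 fold change of -0.17 and missed the threshold (edgeR adjusted p = 0.0579). With library size alone 8 of these genes were called. Among 11 tested regulators and chaperones of fibre cells 2 were called, both lower, against 4.48% lower over all genes tested. Hspb1, which encodes a chaperone of the α-crystallin family, fell from 831 ± 89.2 CPM in wild type to 421 ± 50.5 (log2 fold change -0.98 with an SE of 0.08, adjusted p = 4.35e-08 by edgeR), and Sox1, a transcription factor of γ-crystallin genes, from 118 ± 3.57 CPM in wild type to 99.9 ± 3.29 (log2 fold change -0.24 with an SE of 0.06, adjusted p = 0.0177 by edgeR). The call of Sox1 was lost with library size alone (log2 -0.13, edgeR adjusted p = 0.223), in DESeq2 (adjusted p = 0.0507) and without 5 of the 6 single libraries. Hsf4 and Maf, transcription factors of fibre cells, had log2 fold changes of 0.10 and -0.09 and were not called.

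**Figure D5:**
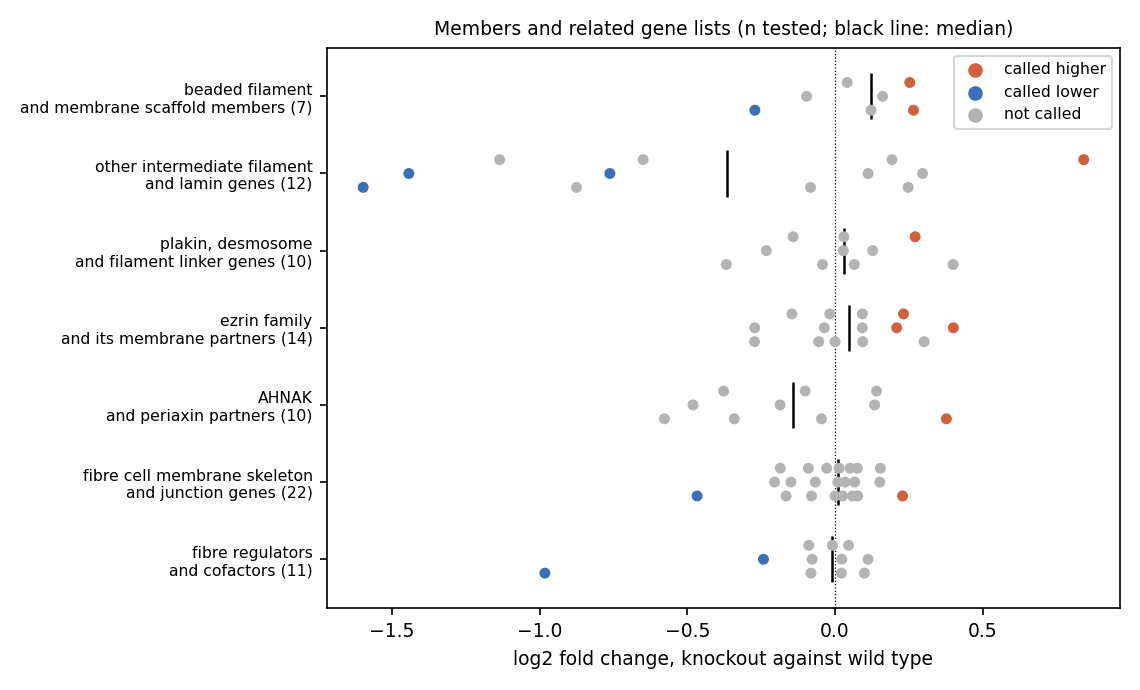
Log2 fold change of every tested gene in the member list and 6 related lists, with 1 point per gene coloured by call and a black line at each list's median. The other intermediate filament genes spread most widely, from -1.60 for Krt18 to 0.84 for Nes, and the membrane skeleton genes lie close to 0.

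Likeness across the 6 libraries is given as a description, since all points share the genotype difference and the scaling. Ppl and Ahnak followed each other most closely, with Pearson r = 0.98 of log2 CPM, and Bfsp2 ran opposite to both, at r = -0.95 and -0.91. Bfsp1 and Bfsp2 had r = 0.81, and Vim had r = 0.90 with Ahnak and -0.09 with Bfsp1. Among 6478 other genes with a mean of at least 10 CPM, the closest to Bfsp2 were Tcp11 (r = 0.997), which fell from 549.5 to 312 CPM, and Dtnbp1 (r = 0.996), the gene of dysbindin. The closest to Ahnak were Ift57 (r = 0.998) and BC004004 (r = 0.997), and to Ppl Apba1 (r = 0.998) and Igf1r, the insulin-like growth factor receptor (r = 0.995). Ccni and Caprin1 were closest to Vim (r = 0.996 and 0.994), Wdr12 and Gnas to Bfsp1 (0.996 and 0.990), Ppia and Metap2 to Ezr (0.990 and 0.986) and Dnajc18 and Josd1 to Prx (0.985 and 0.973). With 6 libraries such values are common, and 315 genes had r above 0.9 with Bfsp2 and 296 with Ahnak.

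Calls were most frequent among the shortest transcripts. With all genes tested split by exon length at 4 limits into 5 bins, Bfsp1 and Bfsp2 lie in the bin of the shortest genes and Ahnak in that of the longest, and the median log2 fold change of genes averaging 10 CPM or more was 0.03 in the shortest and 0.004 in the longest bin. Of these genes the shortest bin had 11.5% called lower and 7.92% higher, against 3.74% to 6.58% lower and 3.24% to 4.98% higher in the other bins. With a correction for length and GC content, added after the data were seen, Bfsp2 was at -0.29, Ppl at 0.26 and Ahnak at 0.29 on the log2 scale, all 3 still called.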

How the data were processed

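Total lens RNA was depleted of ribosomal RNA, made into stranded libraries and read single-end on 4 lanes per library, per the labels' protocols. HISAT2, HTSeq, edgeR and GRCm39 appear in the submitters' processing notes, with no tool versions. The authors deposited raw read counts per Ensembl 104 gene, with an exon length and a GC fraction for each. The authors' deposited comparison table holds a signed fold change (a score never between -1 and 1), p-values, q-values and group means in FPKM.

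CPM values are counts scaled by library size and TMM factors. Genes that passed filterByExpr on genotype were fitted with edgeR 4.0.16 by quasi-likelihood (limma 3.58.1 and R 4.3.3, two-sided), on genotype alone. Adjusted p-values (Benjamini-Hochberg) cover all 11474 genes tested, and a call means 0.05 or less. The SE was taken from the fold change and its F statistic. Libraries of 5384542 to 7302951 counts limit precision, and counting errors cover counting alone. CPM per kb used the deposited exon length. Ratios and shares were compared by exact permutation over 20 arrangements. Replicates differed by more than sampling noise (chi-square over its degrees of freedom was at least 2.80). No replicate block was used.

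The members and gene lists were chosen with earlier results of these data known. Besides the 7 genes, Cd24a, up to 4 called genes of each list and the 2 genes most alike to each of the 7 were named by rule. Synm, Lmna, Lmnb1, Lmnb2, Plec, Dst, Macf1, Msn, Rdx, Anxa2, Ahnak2, Sptan1, Hsf4 and Maf were named after their values were seen, as were single markers. Alternatives were other scalings and filters, DESeq2 1.42.0, limma-voom, a replicate block, leaving out each library and 3 added after the data were seen (a correction for length and GC content, the 4 libraries with replicate numbers 1 and 2, and transcript lengths). No annotation of GRCm39 was used here.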

Additional observations from a re-analysis of the deposited data

How the results depend on the processing

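Over 17 alternatives, the 7 genes gave 119 log2 fold changes, of which 108 kept their direction and their side of the threshold. Bfsp2 (-0.33 to -0.16) and Ahnak (0.25 to 0.37) were called in all 17, Ppl in 16, Vim in 6 and Ezr in 1. Prx and Bfsp1 were called in none. Library size alone gave 1344 calls in place of 861, 1008 higher and 336 lower, with Bfsp1 at 0.011, Vim at 0.27 and Ezr at 0.23, and the last pair were then called. It also gave 3 calls among plakin and desmosome genes, 2 among AHNAK and periaxin partners and 8 in the membrane skeleton list. With no low-count filter Vim was called at 0.17, with 1 call among ezrin partners, 2 among AHNAK and periaxin partners and 1 among fibre regulators. DESeq2 called Vim at 0.16, 219 genes higher, 1 ezrin partner and 1 fibre regulator. Vim was called at 0.16 with limma-voom and at 0.16 with the length and GC correction.

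Same-numbered samples did not deviate together throughout (r = 0.14, -0.03 and 0.23 between their deviations from the group means), and those numbered 3 also share abundant Xist. With the replicate block, 781 genes were called (293 higher, 488 lower), with 1 ezrin partner, and Bfsp2 (-0.27, edgeR adjusted p = 0.018), Ppl (0.25, 0.012) and Ahnak (0.27, 0.0087) were still called. The block changed no call of the other 4 genes.

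The 4 libraries with replicate numbers 1 and 2, chosen after the data were seen, gave 211 genes higher and 1 call each among ezrin partners, membrane skeleton genes and fibre regulators. The log2 ratio of Prx to Ezr was then 0.093 and the filament share differed by -0.032 percentage points. Without crystallin and mitochondrial genes in the total, the share of the 7 genes differed by -0.154 in place of 0.0465 and that of the filament genes by -0.217 in place of 0.00186 percentage points.

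Leaving out 1 library at a time gave 562 to 782 calls, 194 to 297 of them higher, both lowest without knockout replicate 1. Calls ranged over 0 to 1 among plakin and desmosome genes, 1 to 2 among ezrin partners and 1 to 2 among fibre regulators. The log2 fold change ranged over 0.23 to 0.27 for Ppl (not called without wild-type replicate 1), 0.11 to 0.20 for Vim (called without knockout replicate 2), -0.055 to 0.126 for Prx, -0.065 to 0.137 for Dnajc18 and -0.052 to 0.132 for Josd1, the last 3 below 0 without replicate 2 of either genotype. The log2 ratio of Prx to Ezr ranged over -0.202 to 0.033, the share difference over -0.0031 to 0.0810 for the 7 genes and -0.0499 to 0.0347 percentage points for the filament genes.

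Cause was not tested for any of these shifts. Depth limits Prx most, the only one of the 7 genes under 100 CPM, and 3 libraries per genotype leave exact permutation no p under 0.10.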
